A study of Mus musculus with 2 samples.

Results

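Long non-coding RNA (lncRNA) genes carried 240 ARID4B intervals that lay away from the ends of every protein-coding gene. ARID4B binds DNA through an AT-rich interaction domain and belongs to the SIN3 complex, which contains histone deacetylases. The intervals are places where chromatin immunoprecipitation with sequencing (ChIP-seq) found its enrichment over input DNA. An interval was taken where it overlapped the 1 kb either side of an end of a lncRNA gene record and did not overlap the 1 kb either side of any protein-coding gene end, in the RefSeq gene table of GRCm38.p6. The rule found 240 of 6632 intervals (3.62%, 95% Clopper-Pearson interval 3.18 to 4.10%). Another 810 intervals lay at both kinds of end, 4513 at protein-coding ends only, and 1069 at neither.

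The chromatin came from 1 pool of 108 testes of wild type mice at postnatal day 1.5, on a hybrid C57BL6/J and 129/SvEv background. It was precipitated with an antibody against ARID4B from Bethyl Laboratories. The study had 1 ChIP library and 1 input library made without antibody, and the input has no list of its own here. No value below therefore has a replicate, the depth of both libraries is unknown, and no test was made. A whole testis holds several cell types, so strong occupancy in few cells and weaker occupancy in many cannot be told apart. Intervals on shares and medians cover counting error within this list only. The list holds no RNA levels, so the tissue could not be checked against marker genes.

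A lncRNA is a transcript of some length without a long reading frame, usually made by RNA polymerase II from a promoter of its own. Many lncRNAs start close to a protein-coding gene and run away from it on the opposite strand, an arrangement called divergent. Others stand alone, serve as hosts from which microRNAs or small nucleolar RNAs (snoRNAs) are cut, or are expressed from 1 parental copy in imprinted regions. Promoters of widely expressed genes in mammals often lie in CpG islands, stretches in which the CpG dinucleotide has not been depleted. The SIN3 complex carries histone deacetylases to chromatin and is found at many promoters of this kind. No RNA was measured beside this list, so whether any of these lncRNAs is transcribed in the newborn testis was not tested.

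The label "lncRNA ends only" held for gene records and less well for starts of transcription. A gene record has 1 outer end on each side, whereas the RefSeq promoter table lists several starts for some genes. Of the 240 intervals, 97 (40.4%, 34.2 to 46.9%) had a listed protein-coding start within 1 kb, inside the body of a longer record. The share over all intervals was 70%, and over intervals at neither kind of end 42.1%. The 240 intervals were therefore divided by listed start. There were 86 with a lncRNA start only, 82 with both a lncRNA and a protein-coding start, 15 with a protein-coding start only and 57 with no listed start. A lncRNA start was thus listed within 1 kb of 168 intervals (70%, 63.8 to 75.7%). The rule itself favours this, and intervals at both kinds of end had the same share (571 of 810, 70.5%), while that over all intervals was 11.4%. Of all lncRNA genes with a listed start, 7.65% had one within 1 kb of an interval. The promoter table names 183 of the 235 lncRNA genes involved (77.9%), so some of the last 2 groups may have a lncRNA start that it does not list. It names 17492 of 21887 protein-coding genes (79.9%), so protein-coding starts may be missing too. The 97 intervals are thus a lower count, and some of the 86 and of the 57 may have an unlisted protein-coding start.

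The promoters below show the sequence around lncRNA starts at which ARID4B intervals were listed. They run from 250 bases before to 50 bases after the start, 5′ to 3′ on the strand of the lncRNA, and come from RefSeq (GRCm38.p6). Capitals mark matches, on either strand, to the motifs searched: the SP/KLF box (GGGGCGGGG or its complement), the NFY box (CCAAT, or ATTGG) and the E-box (CACGTG). They also mark the TATA box, spelled TATAAA, the SOX core (ACAAT, or ATTGT), the CREB site (TGACGTCA) and an E2F site (TTTCGCGC) where these occur. The first 8 belong to lncRNAs with no listed protein-coding start within 1 kb of the interval, and were chosen because these RNAs are well known or host small RNAs. The last 3 share their interval with a protein-coding start and belong to high-scoring intervals.
Chaserr: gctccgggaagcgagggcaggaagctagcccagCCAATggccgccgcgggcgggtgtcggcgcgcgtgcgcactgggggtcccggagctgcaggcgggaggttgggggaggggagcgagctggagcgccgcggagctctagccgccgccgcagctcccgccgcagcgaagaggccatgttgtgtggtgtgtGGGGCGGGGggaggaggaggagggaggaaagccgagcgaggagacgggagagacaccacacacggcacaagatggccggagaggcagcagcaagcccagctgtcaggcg
Dleu2: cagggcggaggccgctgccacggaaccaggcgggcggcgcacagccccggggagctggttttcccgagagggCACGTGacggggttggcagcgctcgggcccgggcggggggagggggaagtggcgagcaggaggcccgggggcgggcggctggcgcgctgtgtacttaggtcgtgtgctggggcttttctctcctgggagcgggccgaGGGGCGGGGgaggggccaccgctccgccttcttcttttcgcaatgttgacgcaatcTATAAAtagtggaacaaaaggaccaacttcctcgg
Snhg17: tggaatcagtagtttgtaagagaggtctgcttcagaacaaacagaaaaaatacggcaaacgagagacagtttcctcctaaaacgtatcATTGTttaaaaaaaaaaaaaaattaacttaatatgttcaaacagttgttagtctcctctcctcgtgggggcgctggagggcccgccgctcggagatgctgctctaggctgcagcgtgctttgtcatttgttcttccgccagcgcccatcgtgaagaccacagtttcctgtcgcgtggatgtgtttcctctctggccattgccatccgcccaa
Dancr: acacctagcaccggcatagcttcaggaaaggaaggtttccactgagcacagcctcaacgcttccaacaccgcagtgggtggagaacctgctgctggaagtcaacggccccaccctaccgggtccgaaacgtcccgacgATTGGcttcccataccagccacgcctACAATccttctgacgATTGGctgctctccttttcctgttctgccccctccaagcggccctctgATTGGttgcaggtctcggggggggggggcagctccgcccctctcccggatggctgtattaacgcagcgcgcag
Snhg15: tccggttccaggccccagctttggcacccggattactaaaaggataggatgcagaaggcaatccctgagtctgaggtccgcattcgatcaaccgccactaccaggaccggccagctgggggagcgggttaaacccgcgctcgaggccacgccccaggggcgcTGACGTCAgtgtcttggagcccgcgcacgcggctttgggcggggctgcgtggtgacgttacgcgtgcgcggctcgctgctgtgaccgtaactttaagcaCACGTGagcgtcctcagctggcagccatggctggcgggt
Malat1: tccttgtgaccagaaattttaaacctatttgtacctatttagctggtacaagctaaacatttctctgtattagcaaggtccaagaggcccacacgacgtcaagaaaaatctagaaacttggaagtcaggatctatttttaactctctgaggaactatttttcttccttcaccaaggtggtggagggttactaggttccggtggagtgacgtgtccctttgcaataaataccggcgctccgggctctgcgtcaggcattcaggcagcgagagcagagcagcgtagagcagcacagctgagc
Mir22hg: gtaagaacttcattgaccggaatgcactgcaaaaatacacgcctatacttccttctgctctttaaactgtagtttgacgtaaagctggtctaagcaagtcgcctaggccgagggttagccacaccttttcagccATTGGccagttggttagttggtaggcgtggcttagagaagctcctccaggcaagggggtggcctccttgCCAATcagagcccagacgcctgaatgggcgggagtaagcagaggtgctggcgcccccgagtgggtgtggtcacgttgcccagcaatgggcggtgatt
Oip5os1: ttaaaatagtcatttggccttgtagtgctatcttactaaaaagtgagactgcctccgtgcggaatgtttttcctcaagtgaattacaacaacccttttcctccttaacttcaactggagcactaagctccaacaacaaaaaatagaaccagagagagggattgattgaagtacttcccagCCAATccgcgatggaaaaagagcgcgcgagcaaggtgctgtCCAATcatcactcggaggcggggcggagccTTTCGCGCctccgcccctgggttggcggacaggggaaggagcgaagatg
9330151L19Rik: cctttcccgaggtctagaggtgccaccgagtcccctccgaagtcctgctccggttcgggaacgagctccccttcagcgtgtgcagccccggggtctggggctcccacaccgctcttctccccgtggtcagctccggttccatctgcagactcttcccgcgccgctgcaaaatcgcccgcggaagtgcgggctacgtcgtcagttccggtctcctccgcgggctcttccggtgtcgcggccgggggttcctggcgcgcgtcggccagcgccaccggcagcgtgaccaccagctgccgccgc
Zbtb11os1: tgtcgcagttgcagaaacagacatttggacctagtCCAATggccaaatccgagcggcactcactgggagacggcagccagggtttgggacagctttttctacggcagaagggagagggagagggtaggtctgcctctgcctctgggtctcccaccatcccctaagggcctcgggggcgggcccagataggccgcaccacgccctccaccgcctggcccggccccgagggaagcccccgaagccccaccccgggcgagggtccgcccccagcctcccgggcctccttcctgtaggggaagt
Gm39478: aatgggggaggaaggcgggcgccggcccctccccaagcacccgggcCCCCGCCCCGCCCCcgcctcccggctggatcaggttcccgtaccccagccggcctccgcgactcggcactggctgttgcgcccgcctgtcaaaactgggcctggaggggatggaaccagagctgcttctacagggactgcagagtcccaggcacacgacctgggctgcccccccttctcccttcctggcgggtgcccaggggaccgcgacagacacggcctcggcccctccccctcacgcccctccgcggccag

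Chaserr lies beside Chd2, which encodes a chromatin remodeller, and its promoter on the minus strand (chr7:73558346-73558645) holds 30 CpG dinucleotides. Malat1, an abundant nuclear RNA (chr19:5802623-5802922, minus strand), has 10. The Gm39478 promoter (chr11:117266135-117266434, minus strand) has a pair of SP/KLF matches that overlap each other and are drawn as 1 run of capitals. The promoters of Snhg17 (chr2:158361460-158361759, minus strand) and Dancr (chr5:74092810-74093109, plus strand) belong to RNAs that host snoRNAs, as does that of Snhg15 (chr11:6528711-6529010, minus strand). Those of Dleu2 (chr14:61682324-61682623, minus strand) and Mir22hg (chr11:75461289-75461588, plus strand) belong to microRNA hosts. Oip5os1, known as Cyrano in fish, starts in chr2:119594046-119594345 on the plus strand. 9330151L19Rik (chr12:69196961-69197260, plus strand) and Zbtb11os1 (chr16:55974568-55974867, minus strand) face a start of a protein-coding gene on the opposite strand.

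The 240 intervals reached 235 lncRNA genes. Among all 12727 lncRNA genes on assembled chromosomes, 1.85% were reached in this way and 7.94% (1010 genes) had any ARID4B interval at an end. Most of the 1010 lncRNA genes, 775 (76.7%), were reached only by intervals that also lay at a protein-coding end. Of protein-coding genes, 27.1% (5930 of 21887) had an interval at an end. lncRNA genes with a curated transcript made up 120 of the 235 (51.1%, 44.5 to 57.6%), against 3319 of all 12727 (26.1%). Counting any interval, 15.6% of lncRNA genes with a curated transcript had one, and 5.23% of those with predicted transcripts only.

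The intervals at lncRNA ends scored much like the list as a whole. Each interval carries the authors' evidence score, whose scale is not stated in the sources used here and which ranks intervals within this list only. Scores of the 240 ran from 70.81 to 848.37, with a median of 121.2 (95% interval of the median 113.7 to 134.1, quartiles 90.1 and 170.5). The median was 125.0 over all intervals, 127.9 at protein-coding ends only, 133.0 at both kinds of end and 106.7 at neither. Of the 240, 114 (47.5%, 41.0 to 54.0%) scored above the median of the list, where the share over all intervals is 50%. The highest-scoring decile of the list held 21 of them (8.75%, 5.50 to 13.1%). Widths had a median of 1072 bp, against 1084 bp over all intervals, and 13 of the 240 (5.42%) were 2 kb or wider, against 5.11% of all. Score and width rose together across the 240 (Spearman's rho 0.61, a description over intervals of 1 library).

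Among the 240, the median score was highest where both a lncRNA and a protein-coding start were near. The median was 139.0 (95% interval 123.0 to 156.8) for the 82 with both starts and 113.2 (98.5 to 122.0) for the 86 with a lncRNA start only. It was 119.8 for the 57 with no listed start and 113.7 for the 15 with a protein-coding start only. These intervals of the medians just fail to overlap for the first pair of groups and overlap for the others, and no test was made between groups. Of the 86, 36 lay inside a protein-coding record, and some of these may have a protein-coding start that is not listed. Of the 82 with both starts, 50 (61.0%) scored above the median of the list, and of the 86 with a lncRNA start only, 33 (38.4%). A split by gene body is not independent of this one, because all 82 with both starts and all 15 with a protein-coding start only lay inside a protein-coding record. The 165 intervals whose midpoint lay inside a protein-coding record had a median score of 135.4 (120.2 to 143.1), and the 75 outside such records 110.7 (96.9 to 120.0). All 21 intervals in the highest-scoring decile lay inside a protein-coding record.

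**Figure D1:**
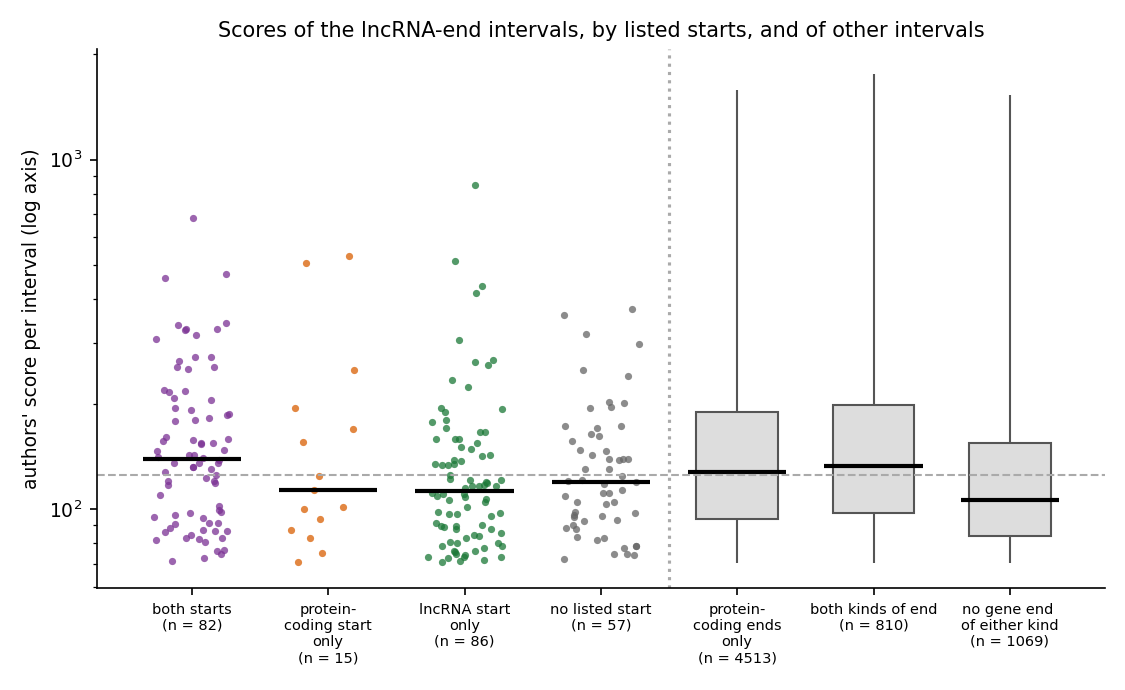
Authors' score of each lncRNA-end interval (log axis), one point per interval, divided by the starts listed within 1 kb, beside the other intervals of the list. Black bars are medians, grey boxes span the quartiles and thin lines the full range, and the dashed line is the median of all intervals. Points with both starts have the highest median (139.0), and points with a lncRNA start only the lowest (113.2).

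Fewer lncRNA-end intervals than other intervals lay within protein-coding records. The midpoint was inside one for 165 of 240 (68.8%, 62.5 to 74.6%), against 91% of all intervals and 90.9% of those at neither kind of end, which are also over 1 kb from protein-coding ends. For 131 of the 165, the host gene is in the promoter table, and 97 of these 131 (74.0%, 65.7 to 81.3%) had a listed protein-coding start within 1 kb. That start lay a median of 5394 bp into its record (quartiles 2310 and 24400 bp), and over 5 kb into it for 51 of the 97. The farthest was in Robo1, an axon guidance receptor, where the start near Gm29908 lay 635631 bp into the record. At Gse1 it lay 308908 bp in, near 1700016A09Rik. None of the 75 intervals outside protein-coding records had a listed protein-coding start within 1 kb, which follows from the rule. Of these 75, 14 lay 1 to 5 kb from the nearest protein-coding end, 50 lay 5 to 50 kb away and 11 over 50 kb.

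Most lncRNA-end intervals lay at the 5′ end of the lncRNA. The strand is known for those in the promoter table. The 5′ end alone was reached by 146 of 240 (60.8%), the 3′ end alone by 15, and both ends of a short record by 26. For 52 intervals the strand was not listed, and 1 reached a 3′ end and an end of unknown strand. Among the 86 with a lncRNA start only, the midpoint lay downstream of the start in 60 (69.8%, 58.9 to 79.2%). Over all 86, the median position was 198.5 bp into the transcript (quartiles -103.25 and 565.5 bp). With both starts, the midpoint was downstream of the lncRNA start in 26 of 82 (31.7%, 21.9 to 42.9%), with a median of -403 bp, that is, upstream of it. From the protein-coding start, in contrast, 81 of 97 midpoints (83.5%, 74.6 to 90.3%) lay downstream, and the median position over all 97 was 363 bp downstream. Over all intervals with a listed protein-coding start, 83.3% lay downstream, and the median position of the whole set was 216 bp downstream. The midpoint lay inside the lncRNA record for 118 of the 240 (49.2%).

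**Figure D2:**
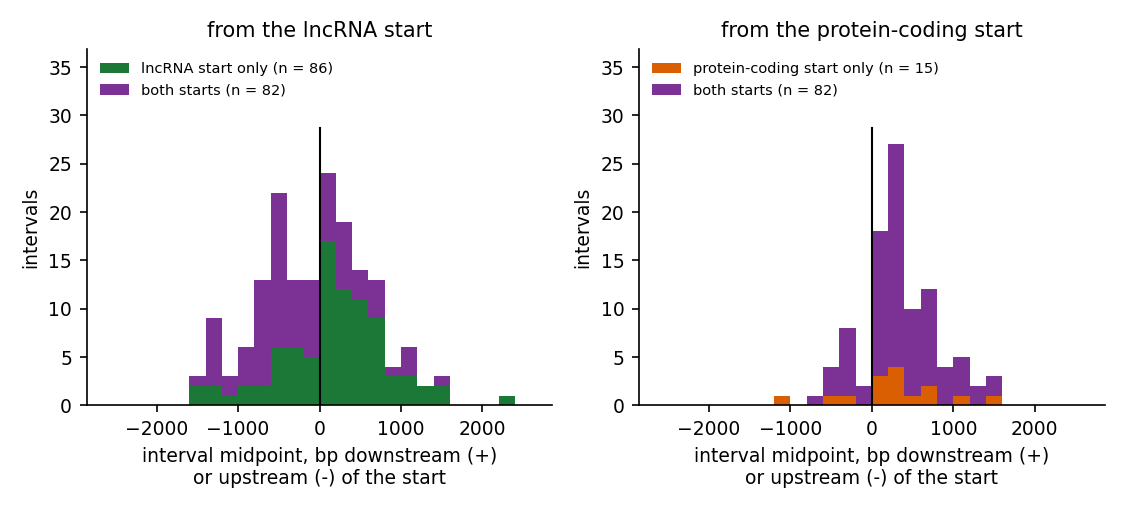
Position of the interval midpoint, in bp, from the lncRNA start (left) and from the protein-coding start (right), in bins of 200 bp with the groups stacked. Intervals with a lncRNA start only lie mostly downstream of it (60 of 86), those with both starts mostly upstream of the lncRNA start (26 of 82 downstream), and midpoints sit downstream of the protein-coding start in 81 of 97.

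Where both kinds of start were present, the pair was most often divergent, though the share over other such pairs of starts was not counted. Of the 82 intervals, 46 (56.1%, 44.7 to 67.0%) had starts that point away from each other on opposite strands, and 33 (40.2%) had starts on opposite strands that point toward each other (called overlapping). The remaining 3 had both starts on the same strand: 5930403L14Rik with Prdm16, D030074P21Rik with Igf2bp3 and Gm35775 with Pth1r. The divergent starts were a median of 177.5 bp apart (quartiles 98 and 425 bp, range 9 to 1564 bp). In 39 of the 46 pairs (84.8%) the midpoint was nearer to the protein-coding start, in 37 (80.4%) it lay downstream of that start, and in 3 between the starts. It lay downstream of the lncRNA start in 6 (13.0%). The interval was thus centred downstream of the listed protein-coding start in most pairs. The midpoints of all 82 intervals lay inside a protein-coding record, which follows from the rule. An interval over 1 kb from every protein-coding end can come within 1 kb of a start only inside the record. The rule asks only for overlap with the 1 kb around a lncRNA end, so an interval need not touch the lncRNA record itself.

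**Figure D3:**
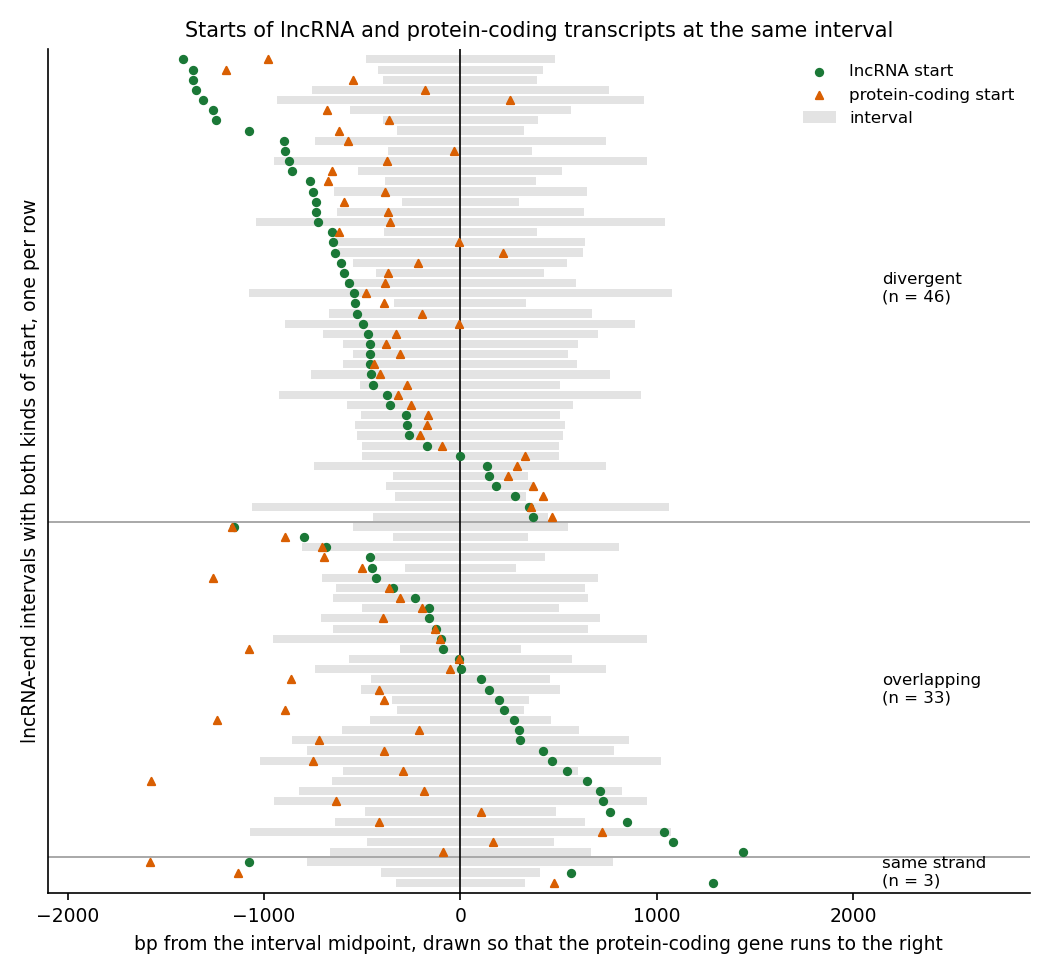
The 82 lncRNA-end intervals with both kinds of start, one per row, drawn around the interval midpoint in bp with the protein-coding gene running to the right. Grey bars are the intervals, circles lncRNA starts and triangles protein-coding starts. In 37 of the 46 divergent rows the triangle lies left of the midpoint, so the interval is centred downstream of the listed protein-coding start. In 6 it is centred downstream of the lncRNA start. All 82 midpoints lie inside a protein-coding record, which follows from the rule.

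The divergent pairs with the best scores show this placing, with distances into a gene counted from its listed start. At Gm39478 and a start of Septin9, a cytoskeletal GTPase, the starts were 62 bp apart and the midpoint lay 480 bp into Septin9 and 542 bp before Gm39478 (score 458.16). At Gm35417 and Edem1, which acts in the disposal of misfolded glycoproteins, the starts were 365 bp apart and the midpoint 370 bp into Edem1 (score 328.04). At 2700046G09Rik and Sgms1, a sphingomyelin synthase, the distance between starts was 1167 bp and the midpoint lay 181 bp into Sgms1 (score 328.12). The exception among these was 4930456A14Rik, with starts only 9 bp from those of Atxn2l. There the midpoint lay 349 bp into the lncRNA (score 342.06). 2700012I20Rik is divergent from Sin3a, which encodes the scaffold of the SIN3 complex, and was picked out after its values were seen. Its interval (chr9:57076206-57077689) scored 192.75, with starts 327 bp apart and the midpoint 571 bp into Sin3a.

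Promoters of these lncRNAs were rich in CpG dinucleotides for lncRNA promoters. The ratio of observed to expected CpG had a median of 0.69 (quartiles 0.47 and 0.87) over 190 promoters of lncRNAs at the 240 intervals. It was 0.23 over 10752 lncRNA promoters without an interval and 0.57 over all 21263 protein-coding promoters. Protein-coding promoters with an interval had a higher median than the 190, 0.84 (5717 promoters), and those without one had 0.37 (15546 promoters). lncRNA promoters with an interval also at a protein-coding end had a median of 0.85. With a lncRNA start only the median was 0.65 (95 promoters), and with both starts 0.69 (97 promoters). A ratio of 0.6 or more was found in 118 of the 190 (62.1%), in 9.28% of lncRNA promoters without an interval and in 47.7% of protein-coding promoters. The G+C share had a median of 63.2% in the 190 and 48.0% in lncRNA promoters without an interval.

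A higher CpG ratio at promoters with an interval was also seen among lncRNA promoters over 1 kb from any protein-coding end or listed start. Of 9840 such promoters, 182 (1.85%) had an interval within 1 kb. By CpG ratio, the share with an interval was 0.510% under 0.2, 1.31% from 0.2 to 0.4 and 2.44% from 0.4 to 0.6. It was 10.1% (7.34 to 13.4%) from 0.6 to 0.8 and 20.5% (15.2 to 26.6%, 43 of 210 promoters) at 0.8 or more. The median ratio was 0.55 for the 182 and 0.21 for the other 9658.

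**Figure D4:**
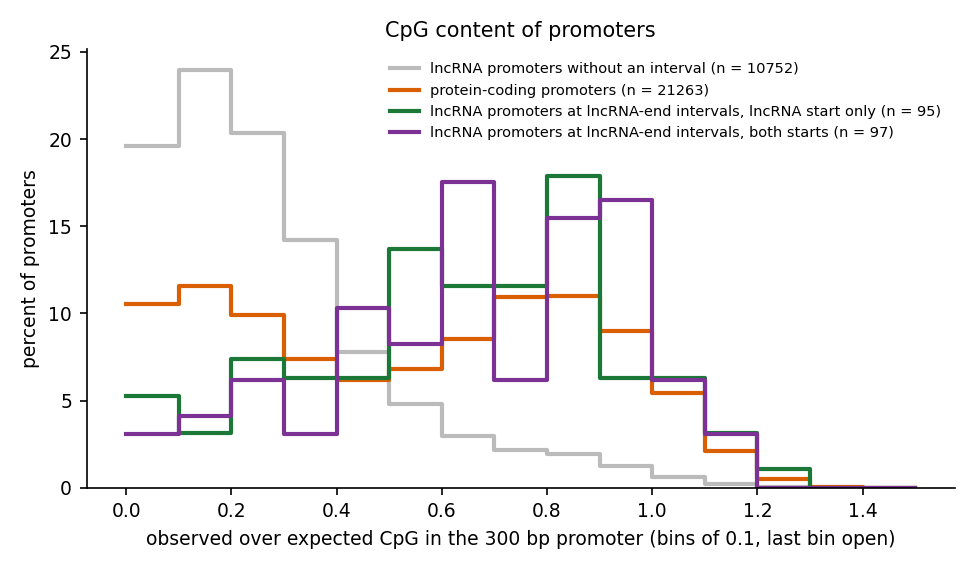
Observed over expected CpG in 300 bp promoters (bins of 0.1, the last open), as percent of each set. lncRNA promoters without an interval pile up at low ratios (median 0.23), while lncRNA promoters at lncRNA-end intervals spread to high ratios with a lncRNA start only (0.65) and with both starts (0.69).

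Motif matches are given as the share of the 190 promoters, then of all 32851 promoters of the same length, then of the 10752 lncRNA promoters without an interval. The SP/KLF box GGGGCGGGG occurred in 38 of the 190 (20%), against 11.4% and 2.95%. The A+T-rich motifs were less frequent than in both other sets. TATAAA was found in 5.79%, against 13.6% and 16.2%. The SOX core ACAAT was found in 18.9%, against 31.0% and 38.9%, and the GATA motif AGATAA in 6.32%, against 11.2% and 14.7%. CCAAT was found in 30.5%, against 37.4% and 36.5%, and the E-box CACGTG in 9.47%, against 7.15% and 5.53%. These differences were not particular to the 190. They had the same direction in the 646 lncRNA promoters with an interval also at a protein-coding end. There the SP/KLF box was found in 21.8%, the TATA box in 5.57%, the SOX core in 13.6% and the GATA motif in 4.64%. The NFY box was found in 29.4% of the 646 and the E-box in 11.0%. Within the 190, the GATA and NFY shares differed by listed start. The GATA motif was in 11.6% of the 95 promoters with a lncRNA start only, which is not below all promoters. With both starts it was in 2.06% of 97. The NFY box was in 24.2% with a lncRNA start only and in 36.1% with both starts, the second close to the other sets. Other motifs were rare in the 190. The ETS motif CCGGAAGT was in 4 promoters (2.11%, against 3.89% and 1.29%) and CREB's TGACGTCA in 3 (1.58%, against 1.79% and 0.856%). The E2F motifs (TTTGGCGC, TTTCCCGC or TTTCGCGC) were in 3 (1.58%, against 1.85% and 0.670%). The NRF1 and YY1 motifs each occurred in 1 (0.526%), against 0.971% and 0.633% of all promoters. Shares of ETS, CREB, E2F, NRF1 and YY1 were below those of all promoters but rest on 4 or fewer promoters each, so no difference is read from them. Each was above the share in lncRNA promoters without an interval, which was 0.279% for NRF1 and 0.0651% for YY1. Both strands were searched, and a match describes the letters only. CCAAT and ACAAT share letters but neither contains the other.

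The best-scoring interval of the 240 lay at Gm31365, inside Tnrc18 (chr5:142812872-142815781, score 848.37), and ranked 18 among all intervals. At 2910 bp wide it reached the 1 kb around both ends of Gm31365 and covered most of that record, and a second interval at the same lncRNA (chr5:142816330-142817708) scored 155.71. The next, at 9330151L19Rik (chr12:69196657-69198698, score 679.56), also held a start of Dnaaf2, an assembly factor of ciliary dynein arms. At A630026N12Rik (chr2:126674364-126676183, score 528.66) the midpoint was 79 bp downstream of a start of Gabpb1, a subunit of the GA-binding protein. At Gm7854 in Cpeb2, which encodes a regulator of cytoplasmic polyadenylation, the score was 511.52 (chr5:43233131-43234616). Gm30189 lay in Gnas, the imprinted gene of the stimulatory G protein alpha subunit (chr2:174327055-174329646, score 505.11). A listed Gnas start was 582 bp from the midpoint, 43448 bp into the record. Zbtb11os1 followed with 471.65 (chr16:55973415-55974975), across a start of Zbtb11.

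All 15 best-scoring intervals lay inside a protein-coding record, and 9 of them had a listed protein-coding start within 1 kb. Besides those above, Gm11772 in Bahcc1 scored 434.52, with no listed protein-coding start nearby. Gm32139 in Kcnn2, a potassium channel, scored 373.63 and Gm10789 in Tiam1, an activator of Rac, 359.31, with no listed start of either kind. 1700016A09Rik in Gse1 scored 336.57, with a Gse1 start within 1 kb. Outside protein-coding records, the best were Gm17762 (chr2:18027325-18029204, score 258.30) and Chaserr (chr7:73557359-73558756, score 234.51), which were named after their values were seen. At the lower end, Gm12592 scored 70.81, 6530402F18Rik 70.90, Gm32817 with Gm53058 71.06, 1110046J04Rik 71.10 and D730003I15Rik 71.74. Such intervals are close to the lowest score of the whole list, 70.02.

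Of 40 classical lncRNAs matched by symbol, 10 (25%, 12.7 to 41.2%) had an interval at an end, and 7 of them were among the 235. The share was 7.94% over all lncRNA genes and 15.6% over those with a curated transcript. All 40 have one, and 15.6% lies within the counting interval. Chaserr, which holds down its neighbour Chd2, scored 234.51. Dleu2, the host of miR-16-1, had intervals on both sides of its start (150.80 and 80.11). Peg13, an imprinted RNA within Trappc9, scored 146.62 (chr15:72809240-72810696) and has no listed start. Dancr, a snoRNA host studied in progenitor cells, scored 134.61. Malat1 had a pair of intervals (chr19:5802337-5803919, score 95.92, and chr19:5800620-5801708, score 85.82), one around its start and one 1508 bp into the transcript. Hotairm1, from the Hoxa cluster, scored 78.72 with an interval shared with Hotairm2, and Oip5os1 72.94. The 7 thus ranged from the lowest scores to the upper part of the list.

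Gas5, Zfas1 and Tug1 also had an interval, but at a place shared with an end of Zbtb37, Znfx1 and Morc2a (187.00, 95.04 and 122.95). The other 30 had none at an end. They were Pantr1, Dnm3os, Morrbid, Norad, Sox2ot, Miat, Lncpint, Halr1, Hottip, Snhg14, H19, Kcnq1ot1, Crnde, Fendrr, Rmst, Tunar, Meg3, Rian, Mirg, Pvt1, Hotair, Airn, Trp53cor1, Bvht, Carmn, Neat1, Firre, Xist, Jpx and Ftx. Neat1 lies beside Malat1. Its lack of an interval says only that none passed the authors' threshold at its ends. Of 9 lncRNAs on the imprinted list, Peg13 alone had an interval (11.1%, 0.281 to 48.2%). Igf2os, also named Peg8, had an interval (74.93) but was not on that list. None of 4 X inactivation lncRNAs had one (0%, up to 60.2%). Among 16 lncRNAs listed for homeobox loci 3 had an interval (18.8%, 4.05 to 45.6%): Hotairm1, Hoxb3os and Wt1os. Of these, Hotairm1 alone was at lncRNA ends only. Wt1os was on the list although Wt1 is not a homeobox gene. With a window of 5 kb the count for this list was 6 of 16 (37.5%). Also at lncRNA ends only, but not on the list, were Hotairm2, Gm36878 in Hoxc9 (148.54) and Gm53, nearest to Hoxb9 (147.64). The counting intervals of all 3 lists include the 7.94% of all lncRNA genes.

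Hosts of snoRNAs had the highest share of the lists. Of 20 listed snoRNA host lncRNAs, 9 (45.0%, 23.1 to 68.5%) had an interval, against 7.94% of all lncRNA genes and 15.6% of those with a curated transcript, which all 20 have. With only the intervals that score above the list's median, 5 of the 20 had one (25%, 8.66 to 49.1%), against 4.36% of all lncRNA genes. With all intervals, 4 of the 9 were at lncRNA ends only. These were Snhg17 (chr2:158360357-158361846, score 195.39), Dancr (134.61), Snhg7 (chr2:26639654-26640677, score 118.84) and Snhg15 (chr11:6527894-6529163, score 107.04). The midpoints lay 408, 157, 79 and 232 bp downstream of their starts, and none had a protein-coding start within 1 kb. Snhg6, Gas5, Zfas1, Snhg18 and Snhg9 had intervals shared with protein-coding ends. A wider count added after the data were seen took every lncRNA record that contains a snoRNA gene: 18 of 108 (16.7%, 10.2 to 25.1%) had an interval. Of these, 7 were at lncRNA ends only, the 4 above and 1110038B12Rik with Snord52 (159.42), AI506816 (158.48) and 2410006H16Rik with Snord49a, Snord49b and Snord65 (155.15).

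Records that contain a microRNA hairpin had an interval in 11 of 98 (11.2%, 5.74 to 19.2%), and 5 of the records (5.10%) were at lncRNA ends only. Of 22 lncRNAs listed as microRNA hosts, only Mir22hg and Dleu2 had one (9.09%, 1.12 to 29.2%). Over all lncRNA genes these shares were 7.94% for any interval and 1.85% at lncRNA ends only, and the counting intervals of both lists include the first. Mature microRNAs from the records at lncRNA ends only, all on the strand of their host, are given next, from RefSeq (GRCm38.p6), with the seed (bases 2 to 8) in capitals. No seed is shared between any 2 of them.
miR-22-3p: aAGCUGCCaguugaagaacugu
miR-22-5p: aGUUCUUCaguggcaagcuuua
miR-16-5p: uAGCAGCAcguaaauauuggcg
miR-16-1-3p: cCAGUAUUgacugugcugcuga
miR-101a-3p: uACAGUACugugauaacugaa
miR-101a-5p: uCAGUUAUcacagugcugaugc
miR-193b-3p: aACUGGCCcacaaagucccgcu
miR-193b-5p: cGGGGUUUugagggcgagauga
miR-365-3p: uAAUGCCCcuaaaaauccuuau
miR-365-1-5p: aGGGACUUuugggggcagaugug

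Mir22hg (chr11:75461243-75462784, score 87.59) holds miR-22 and the interval midpoint lay 474 bp downstream of its start. Dleu2 carries the miR-16-1 hairpin far downstream of its intervals. E130102H24Rik, with miR-101a, had its midpoint 73 bp downstream of the start (chr4:101355828-101356522, score 120.03). Gm32817 and Gm53058, which both contain the miR-193b and miR-365-1 hairpins, shared 1 interval with one of the lowest scores of the list (71.06, chr16:13448281-13448880). None of these intervals had a listed protein-coding start within 1 kb.

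**Figure D5:**
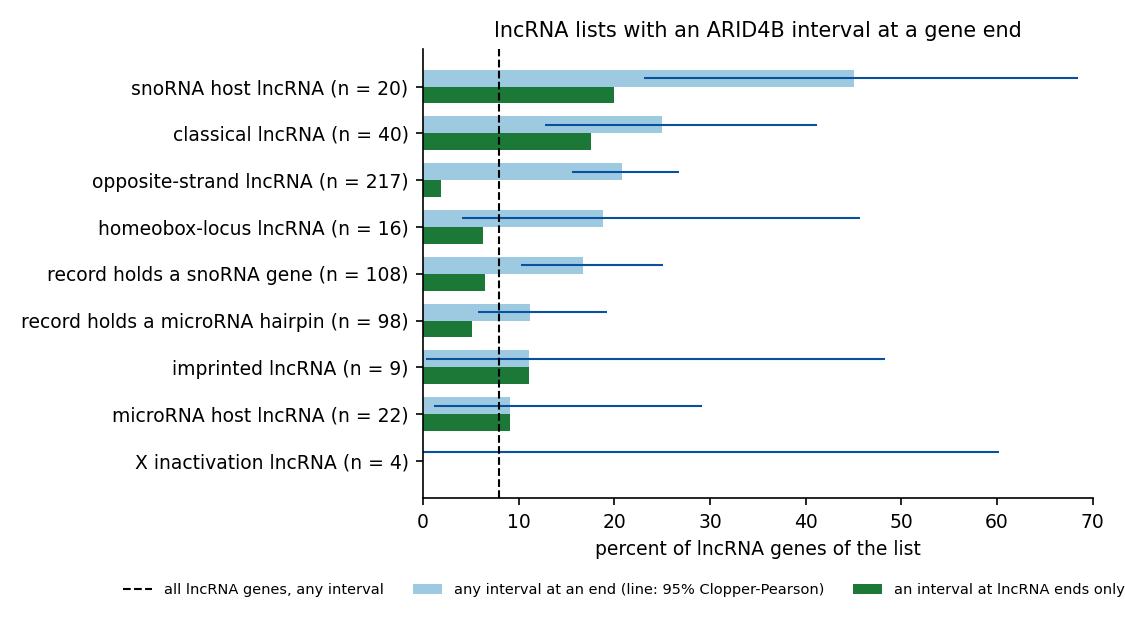
Percent of the lncRNA genes of each list with any ARID4B interval at an end (blue, with 95% Clopper-Pearson intervals) and with an interval at lncRNA ends only (green). The dashed line is the share over all lncRNA genes (7.94%). snoRNA hosts stand highest at 45.0% (4 of 20 at lncRNA ends only), and X inactivation lncRNAs are at 0.

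Opposite-strand lncRNAs, named for the gene they face, mostly shared their interval with a protein-coding end, 41 of 45. Over all lncRNA genes with an interval, 76.7% were reached only in that way. Of 217 on the list, 45 (20.7%, 15.5 to 26.7%) had an interval, against 7.94% of all lncRNA genes. Among those with a curated transcript it was 41 of 179 (22.9%, 17.0 to 29.8%), against 15.6%. At lncRNA ends only were 4 of the 217 (1.84%), close to the 1.85% of all lncRNA genes. These 4 were Zbtb11os1 (471.65), Zfp652os (chr11:95713208-95714016, score 130.64), Igf2os (chr7:142660436-142661344, score 74.93) and Oip5os1 (72.94). At Igf2os the midpoint lay 381 bp downstream of a listed start of Igf2, the fetal growth factor, 5545 bp into its record.

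Several lncRNAs had more than 1 interval. Of the 235, 224 were reached by 1 of the 240 intervals, 10 by 2 and 2810410L24Rik by 3. The 3 at 2810410L24Rik covered most of its record (chr11:120186650-120189856) and scored 189.63 at the start, then 172.64 and 118.12 toward the 3′ end. Another interval of the list lay within 5 kb of 50 of the 240 (20.8%, 15.9 to 26.5%), against 15.3% of all intervals. Conversely, 7 intervals each lay at ends of 2 lncRNA genes. The best of these were Gm20324 with Tbrg3 (chr15:82898609-82899581, score 223.95), Gm14207 with Gm52558 near Dll4 (194.94) and 2900005J15Rik with Gm42232 (132.27). 2900005J15Rik and Gm42232 lie on opposite strands, and whichever start was nearer the midpoint was divergent from a start of Prkag2. B130016D09Rik with Gm45889 scored 117.48, and Gm46405 with Gm52067 scored 116.54. The last pair lay 5365 bp from an end of Sox4, which encodes a SOX transcription factor.

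A list of 61 genes of gonad development and germ cells was compared with the nearest protein-coding gene of each interval. Of the 240 intervals 1 had a listed gene there (0.417%, 0.0105 to 2.30%), and of all intervals 51 (0.769%), so the shares were not distinguishable at this count. That interval was at Gm36183 (chr13:48227468-48228341, score 119.83), with its midpoint 33212 bp from an end of Id4, an inhibitor of basic helix-loop-helix factors that marks spermatogonial stem cells. No start of Gm36183 is listed. Distance to the nearest end does not make Id4 its target.

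The 240 intervals were spread over all autosomes, with 31 on chromosome 2, 23 on 11, 21 on 5 and 20 on 4. None was on the X chromosome, where a count of 0 of 240 allows a share of up to 1.25% (3 of 240), or 1.53% by Clopper-Pearson. Of all intervals 29 (0.437%) were on the X, a share within both limits. Of 289 lncRNA genes on the X, 2 had an interval (0.692%, 0.0839 to 2.48%), both shared with protein-coding ends. That share was below the 7.94% of all lncRNA genes.

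The 1 kb limit divides intervals that differ little. The 5 intervals just beyond it had edges 1019 to 1040 bp from a protein-coding end. These were at Gm10602 near Inppl1 (208.36), Gm2464 near Ralyl (105.07), LOC115487186 near Tpbg (154.53), Gm31939 near Pxdn (118.72) and Gm11650 near Cacng4 (76.07). The 5 just within it, at 952 to 984 bp, were at Gm32059 near Bicra (139.80), Gm36470 near Cdk6 (141.84), Gm16617 near Arhgef40 (74.11), D830015G05Rik near Pex5 (180.63) and Gm5475 near Slc11a2 (246.26).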

How the data were processed

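ARID4B ChIP-seq intervals of 1 pool of testes were used, with input DNA as the control library. Per the submitters' processing notes, the tools were BWA and MACS and the build was mm9. No source used here gives versions or parameters. What the authors deposited is a single list with a score for each interval, which is named a p-value but exceeds 70 throughout. The list is named for mm10. In place, 80.3% of intervals overlapped the 1 kb around protein-coding ends of GRCm38.p6, and 13.3 or 12.9% when shifted by 5 kb, so positions were read as GRCm38. They are printed counting from 1. Whether reads were aligned to that build is not known. The gene table gives outer ends, without strand or exons, so exonic and intronic places were not told apart. Listed starts, strands and promoter sequences came from the RefSeq promoter table (32851 promoters), which does not name every gene, and microRNAs from the RefSeq table of the same build.

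Overlap of at least 1 base was counted in Python 3.11.15 (pandas 2.3.3, numpy 2.4.6, scipy 1.17.1). Shares have 95% Clopper-Pearson intervals and medians have 95% binomial ones, covering counting error only. Depth is unknown, so the lowest detectable enrichment is too. The expected CpG is that from the C and G content of the promoter. The steps were tested on simulated data. The intervals, lists and rules were chosen with earlier results of these data known. Named were the 15 best and 5 lowest intervals, up to 5 at ends of 2 lncRNA genes, lncRNAs of the lists with an interval (up to 6 a list), classical lncRNAs without one, neighbours of gonad genes, hosts of microRNAs (up to 6) and 5 intervals on each side of the 1 kb limit. 1 of the 15 best is not reported here. Others were named after their values were seen: Robo1, Gse1, Sin3a, Prdm16, Igf2bp3 and Pth1r neighbours, 2810410L24Rik, Gm17762 and hosts from the snoRNA count. The symbols Tsix, Cytor, Nespas, Dlx1as and Emx2os were not matched. Alternatives were windows of 500 bp, 2 kb and 5 kb, midpoints, curated records, higher-scoring intervals and lncRNA starts only. Leaving out intervals with a listed protein-coding start, and taking the best interval of each lncRNA, were added after seeing the data.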

Additional observations from a re-analysis of the deposited data

How the results depend on the processing

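Of 133 values recomputed under other settings, 101 moved by less than their 95% counting interval (numbers of intervals, by less than 1.5 times) and 32 by more. The score median and the share above the list's median kept within it under the windows, the midpoint rule, curated records and the lncRNA-start rule. No alternative setting tests the antibody or the depth, and with 1 ChIP library no replicate was left out. No paired analysis was possible because each group has 1 library.

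The share of lncRNA genes with any interval moved with the reach of the window: it was 7.04% with 500 bp, 8.89% with 2 kb, 11.2% with 5 kb and 6.82% with the midpoint inside the stretch. The share of promoters with a CpG ratio of 0.6 or more was 69.9% with 500 bp and 70.4% with the midpoint rule. With 5 kb, the intervals at lncRNA ends only were 987 bp wide (median), 61.1% lay inside a protein-coding record and 33.1% had a listed protein-coding start. In that setting 27.2% of opposite-strand and 37.5% of homeobox-locus lncRNAs had an interval.

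With curated lncRNA records only, 124 intervals were left. Then 15.6% of the records had an interval, 60.5% of the intervals lay inside a protein-coding record and the same share, 60.5%, had the midpoint inside the lncRNA. The CpG share was 74.7%, and 26.9% of records that hold a snoRNA gene had an interval. With intervals scoring above the list's median, 114 were left, by construction with a higher median score (175.8) and a greater width (1294 bp). Of lncRNA genes 4.36% had an interval, as had 12.5% of classical lncRNAs, 9.68% of opposite-strand lncRNAs and 9.26% of snoRNA-holding records. That setting gave 25% of snoRNA hosts, 4.55% of microRNA hosts and 6.25% of homeobox-locus lncRNAs, within the wide counting intervals of these small lists though below their shares with all intervals by over 1.5 times. The only lncRNA left on the homeobox-locus list was Wt1os, at Wt1. Among the 114, 78.1% lay inside a protein-coding record, 49.1% had a listed protein-coding start, and the CpG share was 76.6%.

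With the lncRNA start in place of both ends, 47.7% of intervals had a listed protein-coding start, and 0% of the imprinted lncRNAs with a strand had an interval, since Peg13 has no listed start. Without the intervals that have a listed protein-coding start, 143 were left. Of these, 47.6% lay inside a protein-coding record, 40.6% scored above the list's median and 59.4% had the midpoint inside the lncRNA. The cause of the other moves was not tested. Taking only the best interval of each lncRNA moved none of its 8 values beyond the counting interval.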

Other observations

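Of the 45 opposite-strand lncRNAs with an interval, 41 shared it with a protein-coding end (over all lncRNA genes with an interval, 76.7% did). The best-scoring were Gata6os at Gata6 (1114.18), Wt1os at Wt1 (626.23), Junos at Jun (617.69), Stk35os1 at Stk35 (558.05), Zfp335os at Zfp335 (403.28) and Fam120aos at Fam120a (351.69). GATA6 and WT1 are transcription factors of the somatic gonad, and JUN is a subunit of AP-1. The first 3 each scored above all but 2 or fewer of the 240 intervals at lncRNA ends only, whose highest scores were 848.37 and 679.56. The lowest was Kcnmb4os2 at Kcnmb4 (71.96). These were named after their values were seen. Which transcript of such a pair the interval belongs to cannot be told apart in this list.

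Records that hold microRNA hairpins but share their interval with a protein-coding end were 6, among them A930035F09Rik with miR-21c at Nrp1 (124.07) and Gm26536 with miR-8098 at Wdfy2 (127.18). Of the 5 listed snoRNA hosts that share an interval, Snhg9 beside Rps2 and Ndufb10 scored 455.08, Snhg18 at Sema5a 193.55, Gas5 at Zbtb37 187.00, Snhg6 at Mcmdc2 109.59 and Zfas1 at Znfx1 95.04. The 4 at lncRNA ends only ranged from 107.04 to 195.39.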
